A study of Mus musculus with 23 samples.

Results

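The transcription factor gene Atf4 and 9 genes of its amino acid stress program (Ddit3, Trib3, Chac1, Sesn2, Asns, Psat1, Phgdh, Slc7a11 and Slc7a5) were followed in B16F10 mouse melanoma cells edited in Nr2f6 and studied in culture and in tumors. The genes were taken by symbol from the deposited expression table, and each symbol matched 1 row, so that 10 of 47643 genes are described. The choice applied no threshold to measured values, but it was made with earlier results of these data known. In unedited cells, 9 of the 10 genes were higher in tumor cells sorted from tumors than in cultured cells, by 1.56- to 5.41-fold, beside 12.4% of all genes tested, and 8 of 8 immediate early genes were higher in the same digested and sorted libraries. With the guide sg495, Trib3 and Slc7a11 were lower in cultured cells, by 2.51- and 2.65-fold, beside 2.03% of all genes called lower. The Trib3 call was lost without any 1 of the 4 libraries and the Slc7a11 call without any 1 of 3 of them, with log2 changes that stayed between -1.62 and -1.19. With the guide sg492, 0 of 10 genes and at most 0.05% of all genes passed the thresholds in any sample type.

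B16F10 cells, a melanoma line from C57BL/6 mice, had been transfected with Cas9 protein and a Cy3-labelled guide RNA, sg492 or sg495, against Nr2f6, an orphan nuclear receptor gene. Cy3-positive cells were then sorted, and the sources used here do not say whether they were cloned. Control libraries carried the genotype WT and both guides the genotype NR2F6 KO. RNA came from cultured cells, from bulk tumors grown under the skin of male C57BL/6 mice aged 6 to 8 weeks, and from MACS-sorted tumor cells, for which tumors were minced, digested with collagenase D for 1 h at 30 °C and depleted of stroma on a magnet. Each of the 3 sample types held control, sg492 and sg495 groups of 2 libraries, 18 libraries in 9 groups. The labels do not say whether replicates came from separate animals or cultures, so that p-values measure only the spread between these libraries, which may be technical.

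ATF4 is the main effector of the integrated stress response. Kinases that sense missing amino acids, unfolded protein in the endoplasmic reticulum (ER), heme deficiency or viral RNA phosphorylate the initiation factor eIF2, which lowers general translation while the Atf4 mRNA is translated more, and ATF4 protein then switches on genes of amino acid synthesis and uptake together with regulators that end the response or lead to cell death. Since much of this control acts on translation, the level of Atf4 mRNA is not a measure of ATF4 protein.

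ATF4 binds DNA as a dimer with C/EBP proteins at composite sites, and the core TGATGNAA of such a site was searched for on both strands from 250 bases before to 50 bases after each start site, in RefSeq promoter windows of the mouse build GRCm38.p6. Of the 9 members with a window, 4 held a match (Chac1, Trib3, Asns and Slc7a11), beside 4.51% of the 27025 genes with a window. The other list of ATF4 targets had a match in 12 of 28 genes, and the ER chaperone, NRF2 and hypoxia lists in 0 of 10, 0 of 5 and 0 of 8. A match is a run of letters and not a measured binding site, and no match in a window says nothing of sites elsewhere. The 3 stretches upstream of a start site are shown because these promoters belong to genes whose levels are compared below, with the matched letters in capitals and each stretch read 5′ to 3′ along the strand of its gene. They lie at chr2:119351033-119351072 on the plus strand for Chac1, at chr6:7693214-7693243 on the minus strand for Asns, where the GENCODE annotation starts the gene further upstream, and at chr3:50443637-50443695 on the minus strand for Slc7a11, which held 2 matches in opposite orientation.
Chac1: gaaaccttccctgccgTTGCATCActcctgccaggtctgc
Asns: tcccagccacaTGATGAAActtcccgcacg
Slc7a11: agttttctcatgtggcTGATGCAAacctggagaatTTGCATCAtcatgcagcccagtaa

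Expression was given as TPM, a share of all transcripts corrected for transcript length, so that levels can be compared between genes. TPM carry no record of read depth, and low values, here those of Slc7a11, are the least precise. A gene was called when limma on log2(TPM + 1) gave an adjusted p below 0.05 and a change of at least 1.5-fold, and every fold change below is on the log2(TPM + 1) scale. All 10 genes had a mean of at least 1 TPM in every fit and were tested. With 2 libraries against 2, an exact permutation test cannot give a 2-sided p below 0.333, which is why the spread was estimated across all genes.

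The targeted gene was read first. Nr2f6, at chr8:71374123-71381960 (GRCm38), measured 31.88 and 32.90 TPM in control cultured cells and 18.55 and 22.43 TPM with sg495, a log2 change of -0.64 (SE 0.114, adjusted p = 0.0213). In bulk tumors it went from 25.83 and 25.24 TPM to 17.22 and 15.76 TPM, and in sorted tumor cells from 20.32 and 17.73 TPM to 10.60 and 12.18 TPM, without passing the test (adjusted p = 0.0865 and 0.126). In the sorted libraries labelled sg492, Nr2f6 was at 19.84 and 25.70 TPM and thus not below control, and in bulk tumors and cultured cells labelled sg492 its log2 changes were -0.16 and -0.16 (adjusted p = 0.678 and 0.663). An edited gene may keep its mRNA, so these values do not measure the editing itself. According to the methods of the study, the edited cells were checked by immunoblot and by sequencing the target sites, data that were not analysed here, and in the sorted libraries labelled sg492 the Nr2f6 mRNA gives no check of the label.

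The labelled cell type was present throughout. The 7 melanocyte lineage markers, led by Tyrp1 or Dct, summed to between 14840 and 17844 TPM in each of the 18 libraries. Leukocyte markers summed to 2.48 to 6.23 TPM in cultured cells and 432 to 1205 TPM in bulk tumors. Among sorted libraries that sum was 5.54 to 7.91 TPM in control and sg492 and 100.2 and 105.6 TPM with sg495, of which Cd74, the MHC class II invariant chain, made up 92.42 and 92.87 TPM, while Ptprc, the pan-leukocyte antigen CD45, stayed at 0.15 TPM or less and Cd3e at 0. Fibroblast markers summed to 340 to 956 TPM in bulk tumors and to no more than 7.77 TPM in sorted or cultured cells. Endothelial markers reached 62.02 TPM in bulk tumors and less than 1 TPM in sorted or cultured cells, and keratinocyte markers summed to 8.40 and 6.28 TPM in the bulk tumors labelled sg492, beside 0.03 to 2.55 TPM in the other 4 bulk tumor libraries, with log2 changes against control of 1.80 for Krt5 and 1.86 for Krt14 with sg492 that were not called (adjusted p = 0.481 for both). One library of the sorted sg495 group had 8.02% of its TPM in mitochondrially encoded genes, beside 3.45 to 4.73% in the other 5 sorted libraries.

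How the 3 sample types differ without any edit was read from the control libraries. Sorted tumor cells had the highest level, bulk tumors came next and cultured cells had the lowest for each of the 10 genes. Between sorted and cultured control cells, 9 of 10 genes were called higher, beside 12.4% of all 13152 genes tested, and their median log2 difference was 1.55, beside 0 over all genes. Leaving out any 1 of the 4 libraries kept all 9 calls.

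The regulators among them were far apart between sample types. Atf4 had a lowest, median and highest level over the 6 libraries of 202.6, 277.3 and 302.9 TPM in cultured cells, of 310.4, 409.7 and 483.7 TPM in bulk tumors and of 597.3, 671.9 and 711.0 TPM in sorted tumor cells. The 3 sample types did not overlap for Atf4. Ddit3, which encodes the stress-induced factor CHOP, ran from 40.49 to 89.62 TPM in cultured cells, from 101.5 to 190.4 TPM in bulk tumors and from 295.2 to 359.7 TPM in sorted tumor cells, again without overlap. In the control groups, Atf4 was 2.34-fold higher in sorted than in cultured cells (log2 difference 1.23, SE 0.137, adjusted p = 2.08e-05) and Ddit3 was 3.75-fold higher (1.91, SE 0.208, adjusted p = 1.74e-05).

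Trib3, a pseudokinase gene induced by CHOP and ATF4 that restrains the response, shared with Chac1 the widest difference between sorted and cultured control cells. It was at 28.87 and 29.66 TPM in control cultured cells, at 87.57 and 115.4 TPM in control bulk tumors and at 170.1 and 155.5 TPM in control sorted cells, 5.41-fold higher in sorted than in cultured cells (2.43, SE 0.312, adjusted p = 6.13e-05). Chac1, whose product degrades glutathione, was at 25.75 and 23.73 TPM in culture, 44.26 and 61.13 TPM in bulk tumors and 130.7 and 145.1 TPM in sorted cells, a difference of 5.39-fold between sorted and cultured cells (2.43, SE 0.364, adjusted p = 0.000193). Sesn2, which encodes the leucine sensor Sestrin2, a restraint on mTORC1, had lower levels, at 11.55 and 11.49 TPM in culture and 33.71 and 36.13 TPM in sorted cells (1.52, SE 0.225, adjusted p = 0.00018). For all 3 genes the sorted and cultured libraries lay apart across all guides.

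Among the enzymes, Asns and the serine synthesis genes behaved differently in size. Asns, asparagine synthetase, stood at 112.2 and 113.6 TPM in control cultured cells, 260.2 and 277.2 TPM in bulk tumors and 353.5 and 326.9 TPM in sorted cells, 2.99-fold higher in sorted than in cultured cells (1.58, SE 0.0969, adjusted p = 1.61e-07). Phgdh, the enzyme at the entry to serine synthesis from glycolysis, was at 250.2 and 242.5 TPM in culture and 387.8 and 381.6 TPM in sorted cells (0.64, SE 0.095, adjusted p = 0.00018). Psat1, the enzyme after Phgdh in that pathway, was at 145.7 and 140.7 TPM in culture and 175.9 and 169.7 TPM in sorted cells, and its 1.21-fold difference stayed under the fold threshold (0.27, SE 0.0803, adjusted p = 0.0168). Across all 6 libraries of a sample type, Phgdh and Psat1 were the 2 genes for which sorted and cultured cells overlapped, and the Phgdh call was lost when the sample types were compared over all 3 groups instead of control alone (log2 difference 0.43).

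Both amino acid transporter genes were higher in tumors. Slc7a5, at chr8:121881150-121907694, encodes the large neutral amino acid transporter LAT1 and was at 121.1 and 119.4 TPM in control cultured cells, 199.7 and 231.4 TPM in bulk tumors and 315.8 and 287.7 TPM in sorted cells (sorted against cultured 1.32, SE 0.0891, adjusted p = 3.53e-07). Slc7a11, at chr3:49892526-50443614, encodes the cystine and glutamate exchanger xCT and was the lowest of the 10, at 5.87 and 4.08 TPM in culture, 8.47 and 11.94 TPM in bulk tumors and 19.32 and 21.34 TPM in sorted cells (1.85, SE 0.266, adjusted p = 0.000143).

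**Figure D1:**
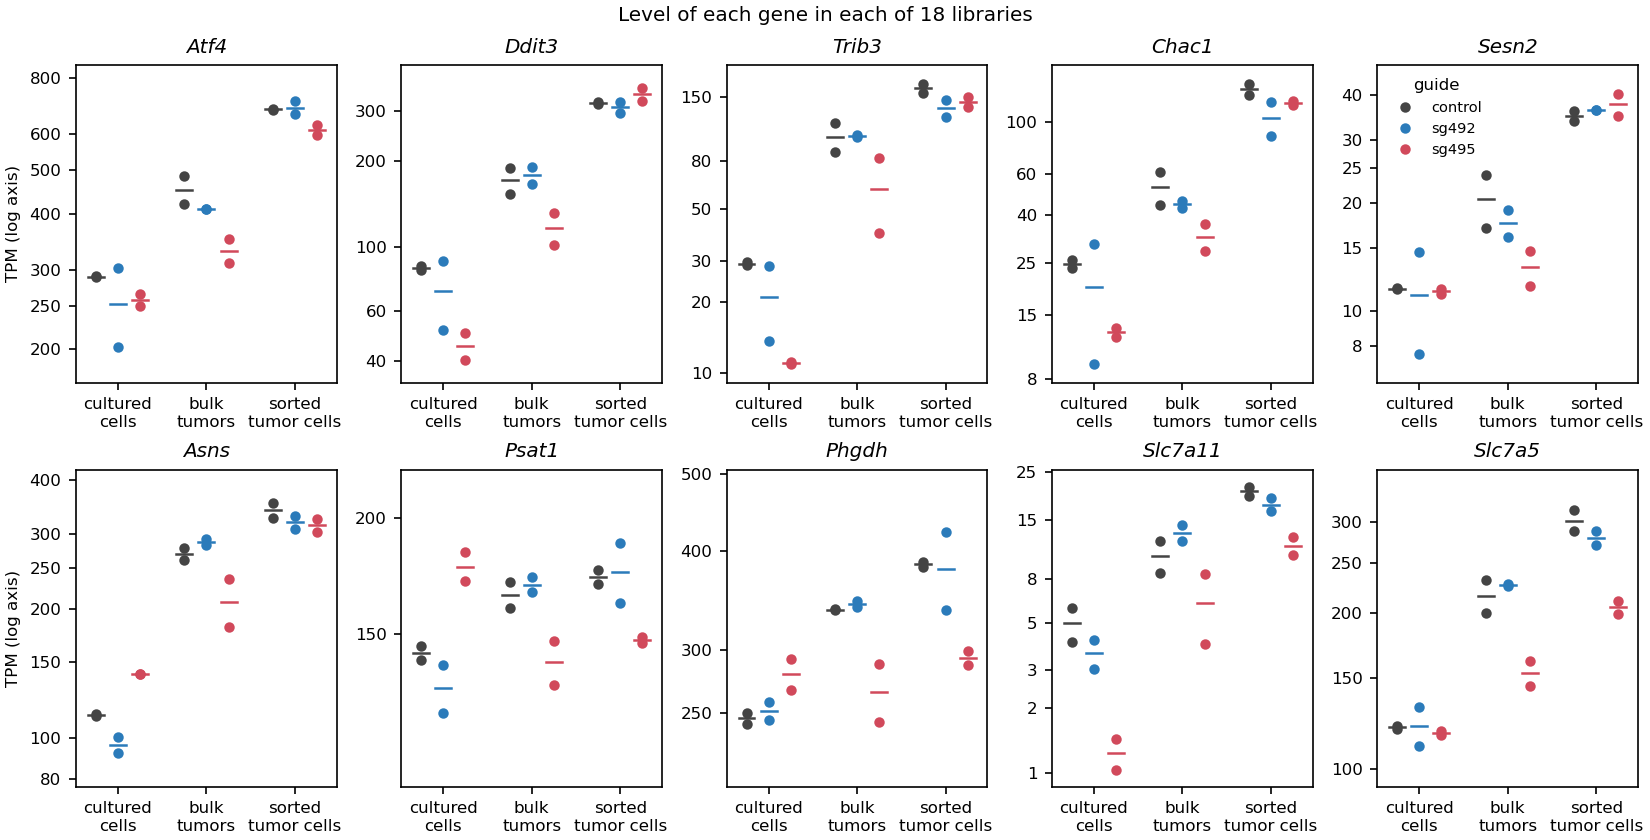
Level in TPM (log axis, scaled per gene) of the 10 genes in each of 18 libraries, by sample type and guide. Points are single libraries and bars are means of 2. For Atf4 all 6 sorted libraries (597.3 to 711.0 TPM) lie above all 6 bulk tumor libraries (310.4 to 483.7 TPM), whereas for Psat1 the sample types overlap.

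Bulk tumors took a middle position. In control libraries, 8 of the 10 genes were called higher in bulk tumors than in cultured cells (13.5% of all genes were higher), with a median of 0.87, and Psat1 (0.21, adjusted p = 0.0616) and Phgdh (0.45, adjusted p = 0.00251, 1.37-fold) were not called. That count depended on single libraries, since it dropped to 4 without bulk control replicate 2 and to 5 without cultured control replicate 2. Against sorted cells, 5 genes were called lower in bulk tumors (Atf4, Ddit3, Chac1, Sesn2 and Slc7a11; 4.46% of all genes were lower), with a median of -0.64 beside 0.014 over all genes. Without bulk control replicate 1, which had the lower level of 9 of the 10 genes in its pair, none of the 5 passed, and without sorted control replicate 1 or 2 there were 3 and 2. In bulk RNA, fewer tumor cells and less RNA per tumor cell cannot be told apart. The summed melanocyte markers overlapped between bulk (15077 to 16110 TPM) and sorted libraries (14840 to 17498 TPM).

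Gene lists around the pathway, written with earlier results of these data known, were read in the same fit. Of 35 other ATF4 targets tested, 29 were higher in sorted than in cultured control cells and 0 were lower, with a median of 0.97. The widest were the secreted stress hormone Fgf21 (4.13), the stress-induced chromatin protein gene Nupr1 (3.23), the proline synthesis enzyme Pycr1 (2.96) and the glycine transporter Slc6a9 (2.04), and Fgf21 was at 0.60 TPM or less in every cultured library. Of the 12 aminoacyl-tRNA synthetase genes in the list, singled out after their values were seen, 9 were higher, from 0.60 (Tars) to 0.80 (Gars), and Yars (0.28), Wars (0.09) and Mars (-0.14) were not called. Of 11 kinases, phosphatase subunits and partner factors, 6 were higher, led by Atf3 (3.42), by Ppp1r15a, the eIF2 phosphatase subunit GADD34 (3.39), by Cebpb (2.40) and by Atf5 (2.19). ER chaperone genes did not move as a list, with 1 of 12 higher (Dnajb9, 2.34), 1 lower (Calr, -0.64) and a median of 0.016. Among 7 NRF2 targets, which answer oxidative stress, 3 were lower (G6pdx, -1.01, Srxn1, -0.90 and Nqo1, -0.82), beside 7.79% of all genes called lower. Among 9 hypoxia targets 2 were higher (Car9, 4.30 and Ndrg1, 0.90) and 1 was lower (Egln3, -1.86). In bulk tumors against cultured cells, 18 of the 35 other ATF4 targets were higher and 1 was lower (Ddit4, an mTORC1 inhibitor gene), with a median of 0.60.

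The immediate early genes, which respond within minutes to handling and growth signals, were highest in the sorted libraries. All 8 of them were higher in sorted than in cultured control cells (Fosb 7.89, Fos 6.92, Egr1 5.09, Nr4a1 4.06, median 3.67) and all 8 were lower in bulk tumors than in sorted cells (median -2.17). Control bulk tumors also had 7 of the 8 called higher than cultured cells, with a median of 1.19, beside 13.5% of all genes. The summed level of the 8 genes was 1036 to 1669 TPM in sorted libraries, with Nr4a1, Fos or Fosb the most abundant, beside 154 to 233 TPM in bulk tumors and 72.16 to 85.50 TPM in culture. Since only the sorted libraries passed through digestion and magnetic depletion, these steps and the sample type cannot be told apart.

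**Figure D2:**
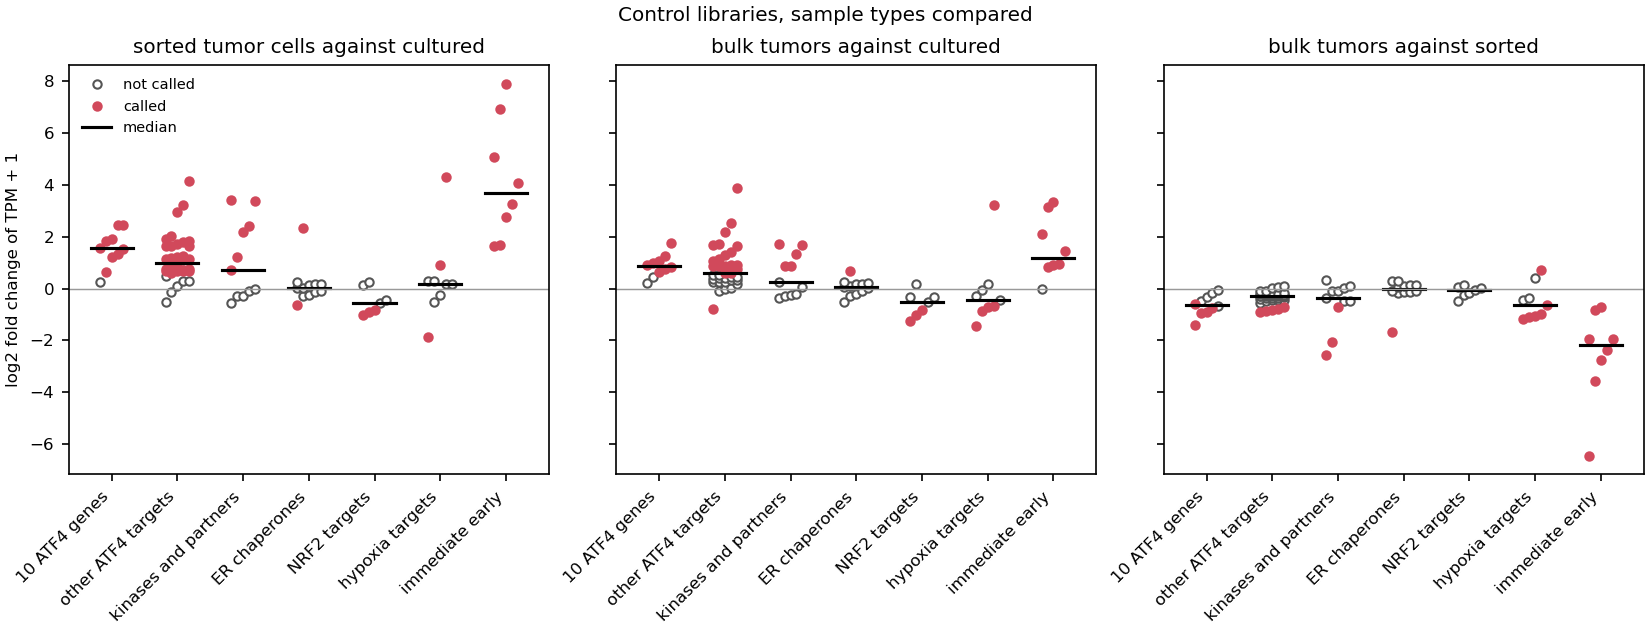
Log2 fold change of TPM + 1 between sample types in control libraries for each gene tested of 7 lists (points), with list medians (black bars). Filled points passed both thresholds. The 10 ATF4 genes have medians of 1.55, 0.87 and -0.64 from left to right, and the immediate early genes reach 7.89 (Fosb) in the left panel.

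The effect of the guide sg495 in cultured cells was split among the 10 genes. Both sg495 libraries were below both controls for 6 genes (28.9% of all genes were so) and above them for Asns, Psat1 and Phgdh (27.5% of all genes were so), and Sesn2 overlapped. Of all 12007 genes tested, 2.77% were called and 2.03% were called lower, and of the 10 members 2 were called, both lower. The median of the members was -0.10, beside -0.001 over all genes.

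Slc7a11 stood at 5.87 and 4.08 TPM in control cultured cells and at 1.44 and 1.04 TPM with sg495, the lowest values of any member in any library (log2 change -1.40, SE 0.216, adjusted p = 0.0138). Over all alternatives this log2 change ran from -1.91 to -1.19. Trib3 was at 28.87 and 29.66 TPM in control and at 10.95 and 11.20 TPM with sg495 (-1.33, SE 0.295, adjusted p = 0.0394). Neither call was firm, since Trib3 lost it when any 1 of the 4 libraries was left out (adjusted p = 0.148 to 0.164) and Slc7a11 lost it without cultured control replicate 1 or either sg495 library (adjusted p = 0.0637 to 0.0803), and both lost it when no filter on low values was applied (adjusted p = 0.128 and 0.0578).

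Ddit3 and Chac1 were below control in both libraries and did not pass. Ddit3 was at 85.80 and 83.26 TPM in control and 50.07 and 40.49 TPM with sg495 (-0.89, SE 0.245, adjusted p = 0.0699), and 3 of the alternatives in the closing section called it. Chac1 was at 25.75 and 23.73 TPM in control and 13.22 and 12.12 TPM with sg495 (-0.91, SE 0.462, adjusted p = 0.265). The fit pools the spread of all 3 groups, and the 2 cultured libraries of the sg492 group held 30.16 and 9.28 TPM of Chac1. Sg492 replicate 2 was the lower of that pair for all 10 genes, with a mean z score over the members of -1.57 beside -0.84 in replicate 1.

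The 3 enzymes had values above control. Asns was at 112.2 and 113.6 TPM in control and at 141.0 and 141.1 TPM with sg495 (0.32, SE 0.0501, adjusted p = 0.0148), and Psat1 went from 145.7 and 140.7 TPM to 170.9 and 183.8 TPM (0.31, SE 0.0677, adjusted p = 0.0393). Both passed on p and stayed under 1.5-fold. Phgdh was at 250.2 and 242.5 TPM in control and 267.1 and 292.4 TPM with sg495 (0.18, adjusted p = 0.0893), and Atf4, Sesn2 and Slc7a5 had log2 changes of -0.17, -0.02 and -0.03 (adjusted p = 0.563 to 0.966).

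Other lists in cultured cells with sg495 were likewise uneven. Of 32 other ATF4 targets tested, 3 were lower, Ddit4 (-1.66, adjusted p = 0.00189), Nupr1 (-1.39, adjusted p = 0.0139) and the angiogenic factor gene Vegfa (-0.94, adjusted p = 0.00192), while 21 of 32 had a log2 change above 0 and the median was 0.08. Of the 11 kinases and partners, Atf3 (-0.69) and Atf5 (-0.63) were lower. The NRF2 targets Hmox1 (-1.23) and Nqo1 (-0.69) were lower of 7 tested, and none of the 12 ER chaperone genes was called. Hypoxia targets had 7 of 9 called lower, the widest being Car9 (-1.89), Adm (-1.79), Bnip3 (-1.50) and Pdk1 (-0.97), with a median of -0.88. Hypoxia targets and the NRF2 targets Hmox1 and Nqo1 moved in the same libraries as Ddit4, Vegfa and the 2 called members. What part hypoxia or NRF2 had in the values of these genes was not tested.

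In bulk tumors with sg495, all 10 genes were at lower levels, and none was called. Both sg495 libraries lay below both controls for 10 of 10 genes, beside 14.3% of all genes. The log2 changes ran from -0.24 (Psat1) to -0.80 (Trib3), with a median of -0.52 beside 0.06 over all genes, and adjusted p values ran from 0.105 to 0.364. At an unadjusted p under 0.05, 9 of 10 genes were lower, all but Slc7a11, beside 4.55% of all genes. The 10 genes moved together, so these counts are not 10 separate results. Their median Pearson r over pairs was 0.92 in the 6 bulk tumor libraries, and 0.66 for deviations from the group means over 18 libraries. After adjustment, 0.0293% of the 13639 genes were called, 4 in number.

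Among the regulators, Atf4 went from 420.2 and 483.7 TPM in the control pair of tumors to 352.1 and 310.4 TPM in the sg495 pair (-0.45, SE 0.0922, adjusted p = 0.105). Slc7a5 was at 199.7 and 231.4 TPM in control and 161.7 and 144.8 TPM with sg495 (-0.49, SE 0.0917, adjusted p = 0.105). Trib3 was at 87.57 and 115.4 TPM in control, and its sg495 libraries held 82.40 and 39.62 TPM (-0.80, SE 0.321, adjusted p = 0.308). Sg495 replicate 2 was the lower of its pair for all 10 genes. Taken alone, replicate 1 had a median log2 difference from control of -0.32 and replicate 2 of -0.65, values added after the data were seen.

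Other targets of ATF4 showed the same sign. Of 35 tested, 32 had a log2 change below 0, with a median of -0.28 beside 0.06 over all genes, and 0 were called. ER chaperone genes had a median of 0.10 and hypoxia targets, 9 of 9 above 0, a median of 0.28. Markers of other cell types had higher levels with sg495 in these tumors, and none was called. All 7 leukocyte markers tested were above 0 (median 1.03, adjusted p from 0.0973 for Ptprc to 0.506 for Cd3e), as were 7 of 7 fibroblast markers (median 0.89) and 5 of 5 endothelial markers (median 0.19). The 8 leukocyte markers, of which Cd74 or Lyz2 was the most abundant, summed to 651.2 and 432.1 TPM in the control pair, to 789.4 and 934.8 TPM in the sg492 pair and to 1071 and 1205 TPM in the sg495 pair, and the 7 fibroblast markers, led by Col3a1, to 402.8 and 339.7 TPM, 459.6 and 549.6 TPM, and 550.4 and 956.3 TPM in the same order. The melanocyte markers summed to 15796 and 15077 TPM in the control pair and 16110 and 15189 TPM in the sg495 pair. The part of these cells in the member values was not tested.

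In sorted tumor cells with sg495, 0 of 10 genes were called, beside 0.899% of the 12899 genes tested. Both sg495 libraries were below both controls for 8 genes (31.5% of all genes were so), Ddit3 was above (17.9% of all genes were), Sesn2 overlapped, and the median of the members was -0.19 beside -0.038 over all genes. The 2 transporter genes lay furthest from control. Slc7a5 was at 315.8 and 287.7 TPM in control and 210.8 and 199.6 TPM with sg495, and passed on p with a change of 1.47-fold, just under the threshold (-0.55, SE 0.0806, adjusted p = 0.0461), and no longer passed on p without any 1 of the 4 libraries (adjusted p = 0.152 to 0.322). Slc7a11 was at 19.32 and 21.34 TPM in control and 12.42 and 10.31 TPM with sg495 (-0.79, SE 0.136, adjusted p = 0.063). Ddit3, Trib3 and Chac1, of which Trib3 alone was called in cultured cells, had log2 changes of 0.09, -0.19 and -0.20 here (adjusted p = 0.457 to 0.65). Of 35 other ATF4 targets 29 were below 0 (median -0.29), as were 12 of 12 ER chaperone genes (median -0.29), and 0 of either were called, while the immediate early gene Egr1 was higher (1.15, adjusted p = 0.04). The leukocyte marker gene Cd74 was also higher in these libraries (5.09, adjusted p = 0.000857). Without sg495 replicate 1, the library with more mitochondrial RNA, Slc7a5 and Slc7a11 differed by -0.59 and -0.91 (adjusted p = 0.156 and 0.161). The part of Cd74-bearing cells or of mitochondrial RNA in the member values was not tested.

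Slc7a5 lies on chromosome 8, as does Nr2f6, and genes of that chromosome were lower as a whole with sg495. The median log2 change over chromosome 8 was -0.25 in bulk tumors, -0.34 in sorted cells and -0.33 in cultured cells. Taken relative to that median, a comparison added after the data were seen, Slc7a5 differed by -0.24 in bulk tumors, -0.21 in sorted cells and 0.30 in cultured cells. Whether the chromosome-wide shift has a part in the Slc7a5 values was not tested.

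**Figure D3:**
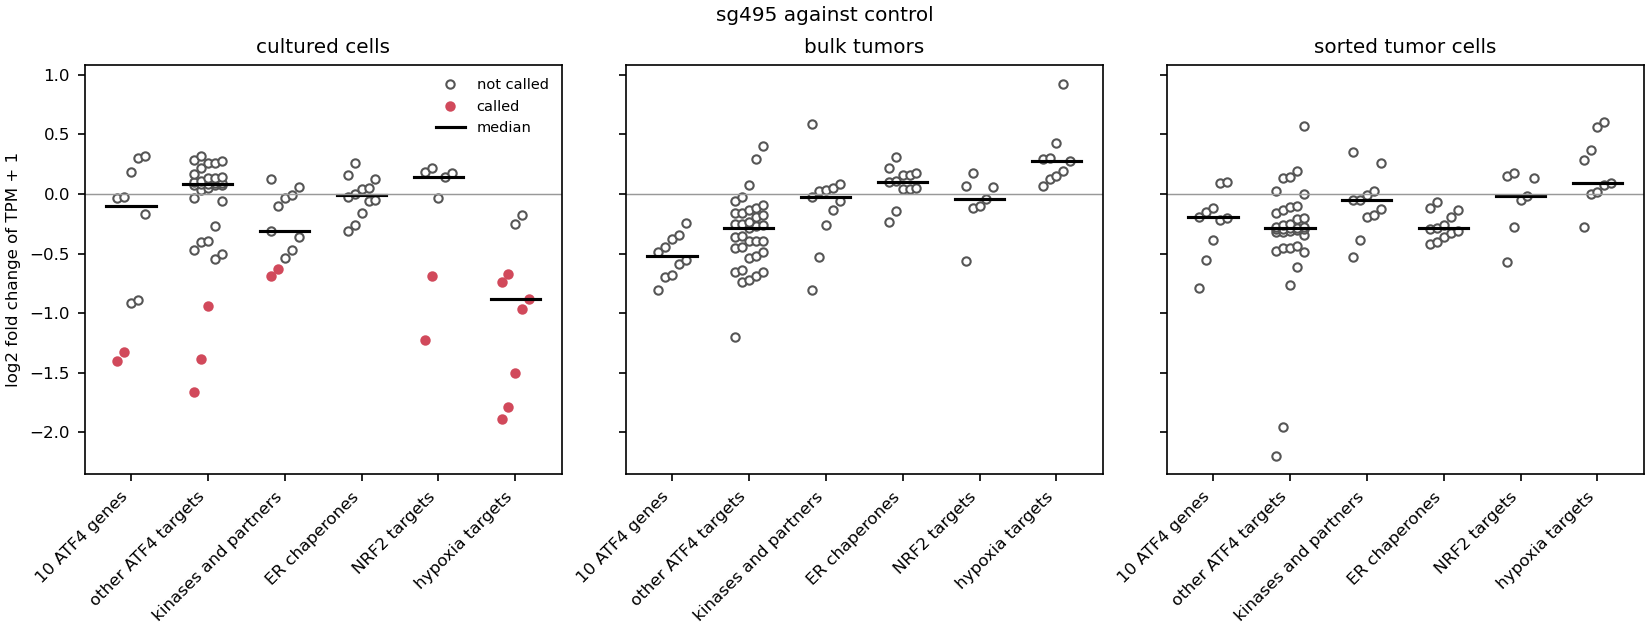
Log2 fold change of TPM + 1 of sg495 against control for each gene tested of 6 lists in the 3 sample types, with list medians (black bars) and filled points for genes past both thresholds. The 10 ATF4 genes have medians of -0.10, -0.52 and -0.19 from left to right, and among these 6 lists filled points appear in the cultured cells alone. The immediate early genes, of which Egr1 was called in sorted tumor cells, are not drawn.

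No member was called with sg492. In bulk tumors 0 of 10 genes passed, beside 0% of all genes (0 called genes in all, and 1132 at an unadjusted p under 0.05), with log2 changes from -0.22 to 0.33, and the part of the keratinocyte markers in these values was not tested. In the sorted libraries labelled sg492, whose Nr2f6 was not below control, 0 of 10 passed beside 0.0388% of all genes, and the changes ran from -0.42 (Chac1) to 0.06 (Sesn2). In cultured cells 0 of 10 passed beside 0.05% of all genes, with changes from -0.54 (Trib3, adjusted p = 0.567) to 0.03 (Phgdh, adjusted p = 0.872). Unadjusted p values under 0.05 were found for 0, 2 and 1 members in bulk tumors, sorted cells and cultured cells, beside 8.3%, 7.13% and 10.5% of all genes. Hypoxia targets in cultured cells labelled sg492 had a median of -0.34 with 9 of 9 below 0 and 0 called.

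**Figure D4:**
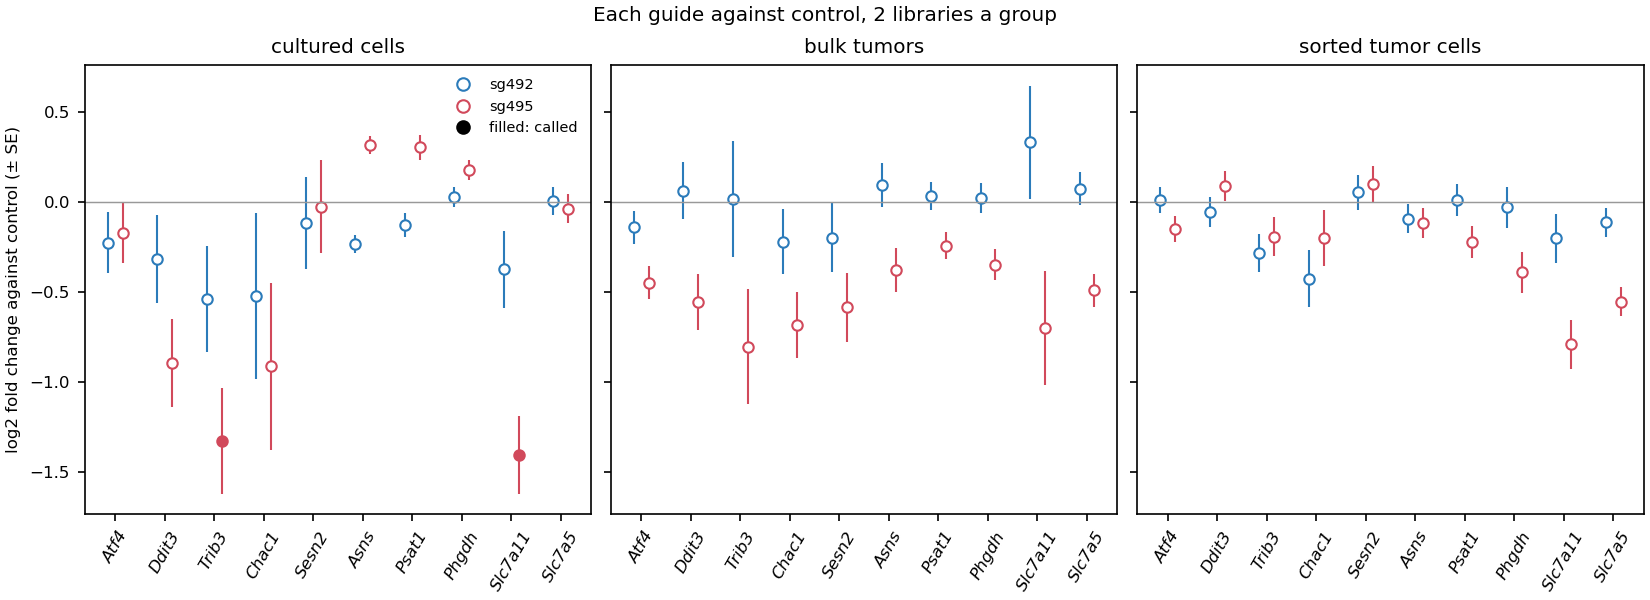
Log2 fold change against control of each of the 10 genes with sg492 (blue) and sg495 (red) in the 3 sample types, with standard errors from limma. Filled points passed both thresholds, which were met by Trib3 (-1.33) and Slc7a11 (-1.40) with sg495 in cultured cells.

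The 2 guides share their control libraries, so they were also set against each other. In cultured cells Slc7a11 was lower with sg495 than with sg492, at 1.44 and 1.04 TPM against 4.16 and 3.03 TPM (-1.03, SE 0.216, adjusted p = 0.0338), 1 of 10 members beside 2.03% of genes called lower and 2.61% called in all. That call was lost without any 1 of the 4 libraries (adjusted p = 0.0737 to 0.16). Asns was at 141.0 and 141.1 TPM with sg495 and 100.2 and 92.04 TPM with sg492 (0.55, SE 0.0501, adjusted p = 0.00401, 1.46-fold), and Psat1 differed by 0.43 (adjusted p = 0.0147, 1.35-fold). Without sg492 replicate 2, Ddit3 (-0.98), Chac1 (-1.19) and Trib3 (-1.29) were called lower with sg495 (adjusted p = 0.0102 to 0.0313). Without sg492 replicate 1, the same genes differed by -0.18, 0.41 and -0.28 and none was called, so that the choice of sg492 library set these values and, for Chac1, the direction. Of 32 other ATF4 targets, Ddit4 (-1.38) and Pycr1 (-0.90) were lower and the proline synthesis gene Aldh18a1 (0.65) was higher with sg495. In sorted cells 0 members were called beside 0.589% of all genes. In bulk tumors 0 members and 0% of all genes were called (1384 at an unadjusted p under 0.05), and for all 10 genes both sg495 libraries lay below both sg492 libraries, beside 19.6% of all genes. Since the 10 genes moved together in bulk tumors, that count is not 10 separate results. In the same bulk tumor contrast all 7 leukocyte markers tested (median 0.43) and all 7 fibroblast markers (median 0.49) were above 0. Both keratinocyte markers tested were below 0 (median -1.97), and no marker of these lists was called. The part of these cells in the member values was not tested.

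The change with sg495 was compared between sample types by an interaction term. Asns differed between bulk tumors and cultured cells, with log2 changes of -0.38 and 0.32 that were not called on their own (difference of log2 changes -0.70, SE 0.137, adjusted p = 0.0267), 1 of 10 members beside 1.76% of all genes called in either direction and 0.16% called lower. It was not called without bulk control replicate 2, bulk sg495 replicate 2 or any of the 4 cultured libraries. Psat1 had the same pattern (-0.55, SE 0.114, adjusted p = 0.0334) at 1.46-fold. Between sorted and cultured cells 0 members were called, beside 2.51% of all genes in either direction and 0.646% called lower, while Psat1 (-0.53, adjusted p = 0.0248), Phgdh (-0.57, adjusted p = 0.0364) and Slc7a5 (-0.52, adjusted p = 0.0411) passed on p alone. For Ddit3 and Trib3, whose log2 changes with sg495 were -0.89 and -1.33 in culture and 0.09 and -0.19 in sorted cells, the differences of 0.99 and 1.14 did not pass (adjusted p = 0.0896 and 0.187). Among the other lists, Vegfa (1.51 and 1.34) had a higher sg495 effect in sorted cells and in bulk tumors than in culture, as had Ddit4 (1.79 in sorted cells, and also called in bulk tumors) and the hypoxia targets Adm (2.39 and 2.71) and Car9 (2.26 and 2.32), while Mthfd2, a mitochondrial folate enzyme gene, had a lower one in bulk tumors (-0.75).

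How far the 10 genes moved together depended on the sample type. Over the 45 pairs, the median Pearson r of log2(TPM + 1) was 0.89 across the 18 libraries, which differ in sample type, and 0.66 for deviations from the group means. Within the 6 bulk tumor libraries the median r was 0.92, from 0.81 (Phgdh and Sesn2) to 0.99 (Atf4 and Chac1). Within the 6 cultured libraries it was 0.37, from -0.81 (Phgdh and Slc7a11) to 0.97 (Ddit3 and Trib3), and within the 6 sorted libraries 0.16, from -0.83 (Ddit3 and Psat1) to 0.98 (Psat1 and Phgdh). These are descriptions over 6 libraries each, in 3 groups. The 5 genes outside the 10 whose pattern over the 18 libraries was most like the members' mean z score, of 2523 that varied enough, were Slc1a4 (r = 0.972), Slc3a2 (0.971), Herpud1 (0.969), Gadd45a (0.967) and 2410006H16Rik (0.967), and the leading 3 are in the list of other ATF4 targets.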

How the data were processed

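Poly(A) RNA was sequenced with directional libraries and single-end reads. The authors trimmed reads with Cutadapt 2.3, aligned them with STAR 2.7.0d to mm10 with an Ensembl annotation, and estimated expression with RSEM 1.3.1. The deposited table gave TPM per gene and library, and read counts were not used here. Read depth per library is not given by TPM.

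Groups followed the labels. Genes averaging 1 TPM or more over the libraries of a fit were tested on log2(TPM + 1) with limma 3.58.1 in R 4.3.3 (lmFit, eBayes with trend, 2-sided, Benjamini-Hochberg over all genes tested, called at adjusted p below 0.05 and 1.5-fold). Guides were compared within the 6 libraries of a sample type, and sample types and interactions over all 18. The fits were tested on simulated data. IgG and anti-PD1 libraries entered no fit. The 10 members and all gene lists were chosen with earlier results of these data known. Named genes were the 10 members, Nr2f6, up to 4 called genes of each list and comparison with the largest change, and the 5 genes most like the members; other genes were named after their values were seen. Alternatives were a pseudocount of 0.1, no filter, a filter at 5 TPM, scaling by the median of ratios, a replicate block, each library left out, all 18 libraries in 1 fit, and sample types averaged over the 3 groups. Gene positions came from GENCODE (GRCm38) and promoter windows from RefSeq.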

Additional observations from a re-analysis of the deposited data

Results flagged for a closer look

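For 5 pairs of a gene and a comparison, the interaction test of limma on the sg495 effect between sample types gave an adjusted p below 0.05, and of these Asns alone also passed the fold threshold. Between bulk tumors and cultured cells, the difference of log2 changes was -0.70 for Asns and -0.55 for Psat1. Between sorted tumor cells and cultured cells it was -0.53 for Psat1, -0.57 for Phgdh and -0.52 for Slc7a5. The Asns call was lost without any 1 of 6 libraries. Over the alternatives, the highest adjusted p was 0.11 for Asns and 0.129 for Psat1 between bulk tumors and culture, and 0.108 for Psat1, 0.143 for Phgdh and 0.141 for Slc7a5 between sorted cells and culture. For Asns, Psat1 and Phgdh both sg495 libraries were above both controls in culture and below them in either kind of tumor library, whereas Slc7a5 was close to control in culture (-0.03) and below it in sorted cells (-0.55). Slc7a5 relative to the median of chromosome 8 gave a difference of -0.49 between sorted and cultured cells. Groups held 2 libraries each, too few for a search for outlying samples.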

How the results depend on the processing

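No called member reversed its direction under any alternative. In cultured cells, the 2 members called lower with sg495 became 0 with no expression filter and 0 to 1 with a library left out. Ddit3 was called there with a mean of at least 5 TPM (adjusted p = 0.0493), where Slc7a11 was filtered out and not tested, with the replicate block (0.0416) and with all 18 libraries in 1 fit (0.0261). Against sg492 in cultured cells, the 1 member called lower became 0 with no filter and 0 to 3 with a library left out, and there were 0 at 5 TPM, where Slc7a11 fell under the filter and was not tested, and the 0 called higher became 1 with scaling and 0 to 1 with a library left out. Leaving out a library gave 4 to 7 members higher in bulk tumors than in culture, 0 to 6 lower in bulk tumors than in sorted cells, and 0 to 3 for the bulk minus cultured interaction, which had 2 with scaling. Numbers of genes called varied more, and for both interactions they could fall outside the range of the other settings when a library was left out. For sg495 they ran from 0 to 395 in bulk tumors, from 3 to 399 in sorted cells and from 219 to 366 in culture, and with a library left out from 0 to 190, from 4 to 49 and from 165 to 219. For sg495 against sg492 they ran from 0 to 58 in bulk tumors and from 20 to 353 in sorted cells. With a library left out, that contrast gave fewer genes in sorted cells and in culture than any setting with all libraries. For sg492, leaving out a library gave up to 66 in bulk tumors. Calls in bulk tumors with all 18 libraries in 1 fit (395) rest on a shared spread. With no filter, 2840 genes differed between bulk tumors and culture and 2118 between bulk tumors and sorted cells, beside 1409 and 994 at 5 TPM.

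For 27 results of members that were not called under either setting, the direction changed, 31 times by leaving out a library and 7 times by scaling. Log2 changes with a library left out, by result, ran as follows. With sg492 in bulk tumors they ran from -0.45 to 0.010 for Chac1, -0.089 to 0.22 for Ddit3, -0.011 to 0.081 for Psat1, -0.43 to 0.035 for Sesn2, -0.029 to 0.18 for Slc7a5 and -0.18 to 0.21 for Trib3. In sorted cells with sg492 they ran from -0.037 to 0.063 for Atf4, -0.12 to 0.006 for Ddit3, -0.19 to 0.13 for Phgdh and -0.093 to 0.12 for Psat1. In culture with sg492 the range was -0.51 to 0.064 for Atf4, -1.32 to 0.28 for Chac1, -0.71 to 0.084 for Ddit3, -0.009 to 0.069 for Phgdh, -0.55 to 0.32 for Sesn2 and -0.12 to 0.13 for Slc7a5. For sg495 against sg492 in culture the range was -0.23 to 0.34 for Atf4, -1.19 to 0.41 for Chac1, -0.34 to 0.52 for Sesn2 and -0.16 to 0.082 for Slc7a5. In sorted cells this contrast ran from -0.076 to 0.028 for Asns, -0.013 to 0.47 for Chac1, -0.051 to 0.15 for Sesn2 and -0.026 to 0.21 for Trib3. For sg495 in culture it ran from -0.048 to 0.001 for Sesn2. The interaction between sorted cells and culture ran from -0.024 to 0.066 for Atf4. Scaling turned Ddit3 (-0.008), Phgdh (-0.049), Psat1 (-0.038) and Trib3 (-0.055) with sg492 in bulk tumors, Phgdh (-0.001) and Slc7a5 (-0.026) with sg492 in culture, and Asns (0.025) for sg495 against sg492 in sorted cells.

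Within each sample type, deviations of same-numbered libraries of different groups correlated between -0.126 and 0.051, which gave no sign of pairing by replicate number. Whether same-numbered libraries of different sample types, such as bulk and sorted, came from the same tumor was not examined. The replicate block changed no other member call. With the numbers of the bulk control libraries crossed, chosen after the data were seen, sg492 called 0 genes in bulk tumors. Scaling moved no median over all genes by more than 0.1. The 2 libraries per group, unknown read depth and unstated origin of replicates limit every comparison.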

Other observations

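The 5 IgG and anti-PD1 libraries, also from B16F10 and with no sample type in their labels, entered no test and are set beside the bulk tumors as values. For 7 of the 10 genes all 5 were below all 6 bulk tumor libraries, beside 44.0% of all 13893 genes that averaged 1 TPM or more in these 11 libraries. Asns was at 31.09 to 73.05 TPM in them, Slc7a5 at 29.14 to 85.83 TPM, Phgdh at 33.35 to 96.23 TPM and Chac1 at 5.70 to 10.16 TPM, whereas Ddit3 (62.80 to 128.7 TPM), Sesn2 (10.82 to 18.01 TPM) and Slc7a11 (2.78 to 11.64 TPM) overlapped the bulk tumors. In the same 5 libraries the melanocyte markers summed to 1663 to 5015 TPM and the leukocyte markers to 6972 to 11728 TPM. Mitochondrially encoded genes held 8.63 to 21.9% of their TPM, beside 4.73 to 6.70% in bulk tumors. Here too, fewer tumor cells and less RNA per tumor cell cannot be told apart.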
